A study of Zea mays with 4 samples.

Results

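Zea mays endosperm was examined for the genomic sites bound by ZmbZIP22, and the 215 partnered peaks of chromosome 6 in each replicate are described here. A peak was taken as partnered when the summit of a peak in the other replicate lay within 500 bp on the same chromosome. The members are thus 430 of the 3752 entries of both peak lists, with 215 of 1961 entries in replicate 1 and 215 of 1791 in replicate 2. Interest lay in the stretch of the chromosome in which a peak starts between 10 and 30 Mb, and every other member of chromosome 6 is called the rest. The members were chosen by their summit positions in both lists, and the stretch was proposed with the counts of these lists known, so counts in it are a description. The Mb bounds and all positions are those of the deposited files, which name no genome build, so no gene or sequence is attached to a peak.

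The material was wild-type kernels, from which endosperm was taken at 15 days after pollination. Chromatin immunoprecipitation with sequencing (ChIP-seq), in which DNA crosslinked to a protein is recovered with an antibody and sequenced, was done with an anti-ZmbZIP22 antibody made by the submitters and, as the antibody control, with IgG. Each antibody had 2 replicates, or 4 libraries in all, and no treatment or mutant was included. Separate plants are not stated for the replicates, so the SD between lists given below may be technical, and no test was run over the 2 lists.

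Basic leucine zipper (bZIP) proteins bind DNA as dimers, with a basic region that touches the bases and a zipper that holds the dimer together. In cereal endosperm they are known as regulators of storage protein genes, of which Opaque2 is the textbook case in maize, and ZmbZIP22 is known for its action on a gamma-zein gene. The short arm of maize chromosome 6 carries the nucleolus organizer region, a long array of ribosomal RNA genes. Its position relative to the stretch was not established in the coordinates of these files.

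Members were crowded in the stretch in both lists. It held 80 of the 215 members of replicate 1 and 80 of the 215 of replicate 2, or 37.2% ± 0 (SD, n = 2 lists), on 11.8% of the span to the last listed peak of the chromosome. That was 4 members per Mb in the stretch and 0.904 per Mb in the rest, a ratio of 4.42 ± 0 (SD, n = 2). The counts of the lists were the same in all 34 windows of 5 Mb along the chromosome, which the choice of members by a near partner largely fixes. Among the lone peaks of chromosome 6, those with no partner, 5 of 38 in replicate 1 (13.2%) and 4 of 22 in replicate 2 (18.2%) started in the stretch. The lone peaks all had a high listed fold enrichment, the authors' ratio of pileup to local background. It lay between 25.6 and 145 (replicate 1) or 26.2 and 102 (replicate 2), against medians of 4.18 and 7.56 among the partnered members. Every peak of chromosome 6 with a lower listed fold enrichment than these lone ranges thus had a partner. Whether lone and partnered entries were on the same scale was not established, so the size of this difference cannot be read. How the lists were selected before deposit was not established, and neither partnering nor the lone shares can be read as a rate of agreement between the replicates.

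**Figure D1:**
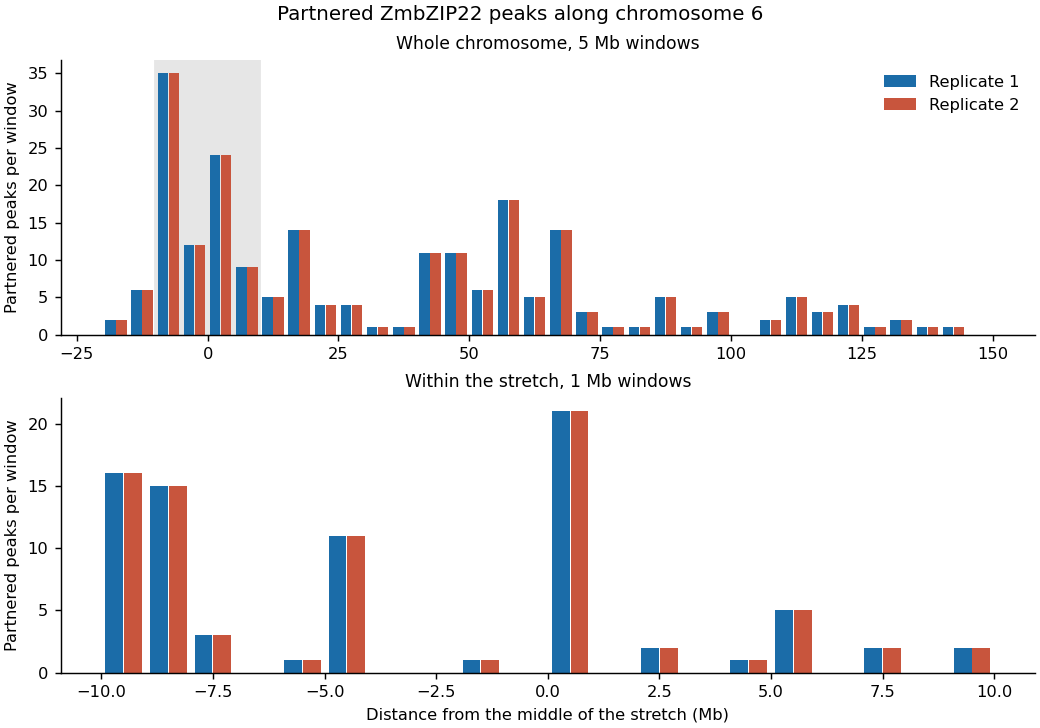
Number of partnered peaks of chromosome 6 per 5 Mb window (upper panel, the grey band marks the stretch) and per 1 Mb window within the stretch (lower panel), against distance in Mb from the middle of the stretch, with 1 bar per replicate. The bars of the replicates are equal in every window, the highest 5 Mb window holds 35 members, and 4 of the 1 Mb windows hold 63 of the 80 members of the stretch.

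Members were not spread evenly inside the stretch. The windows that start at 10, 11, 15 and 20 Mb held 16, 15, 11 and 21 members of each list, which is 63 of the 80, while 8 of the 20 windows of 1 Mb held none. The densest 5 Mb window of the chromosome ran from 10 to 15 Mb with 35 members. The next was from 20 to 25 Mb with 24 members. Outside the stretch the fullest windows of 5 Mb were those from 75 to 80 Mb with 18 members, and from 35 to 40 Mb and 85 to 90 Mb with 14 each. Members were sparse at the far end, and the longest gap between neighbouring summits ran over 12487252 bp in replicate 1 (from 116016776 to 128504028) and 12487350 bp in replicate 2.

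The lower bound at 10 Mb fell in a gap, and so did the upper bound. In replicate 1 the last member below 10 Mb was at 9494564 to 9494912, with a pileup of 48.2, the height in stacked fragments at the summit on the scale of the authors' peak caller. The first member above it was at 10119389 to 10119718, with a pileup of 102. The last member below 30 Mb was at 29608864 to 29609119 with a pileup of 11.4, and the first beyond it was at 30252888 to 30253266 with a pileup of 38.5. On chromosome 6 the limit of 500 bp also fell in a gap, since partner summits lay at most 298 bp apart and the nearest summit of the other list to any lone peak was 4278 bp away. That nearest lone peak, at 140072066 to 140072587 in replicate 1, had a fold enrichment of 33.2. Lone peaks of chromosome 6 also reached a lower local background, as implied by pileup and fold enrichment, than its partnered peaks. The lowest lone value was 0.868 in both lists, against lowest partnered values of 2.17 in replicate 1 and 1.35 in replicate 2. In replicate 1 the lowest and highest lone pileups were the whole numbers 54 and 601, against 9.63 and 430.86 among the partnered peaks. Whether lone and partnered entries of a list are on the same scale was not established. Their pileups, fold enrichments and backgrounds may therefore not be comparable.

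Neighbouring summits lay closer to each other in the stretch. The median distance to the next summit was 20740 bp in the stretch (quartiles 7372 and 86821, 79 distances) and 399237 bp in the rest (quartiles 43090 and 1103539, 133 distances) in replicate 1. In replicate 2 the medians were 20766 and 398843 bp. The ratio of the medians, stretch to rest, was 0.052 ± 0.000082 (SD, n = 2). This SD, like the SD of 0 for the counts, is fixed by the choice of members, since partner summits at most 298 bp apart give both lists nearly the same spacing, and it does not measure the agreement of the replicates. Even so, gaps of over 2 Mb occurred inside the stretch, the longest being 2660106 bp in replicate 1, after the summit at 15936532, and 2660496 bp in replicate 2.

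Joining summits less than 100 kb apart put the 80 members of the stretch into 19 groups and the 135 of the rest into 92, with the same numbers in both lists. Groups of at least 4 members took in 66 of the 80 in 8 groups, against 27 of the 135 in 4 groups. In the rest, 71 members had no neighbour at that distance, against 8 in the stretch. The largest group held 21 members between 20465298 and 20712320 in replicate 1, and it is called the 21-member group below. The second held 13 members, between 10897028 and 11199357. Groups of 7 lay at 10382080 to 10627231 and at 15794327 to 15936700. The largest groups of the rest had 8 members each, at 39159182 to 39298671 and at 76054419 to 76156722.

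Several listings were summits of a single broad interval. In replicate 1, 25 of the 215 entries shared 12 intervals, among them 11 entries on 5 intervals in the stretch, which leaves 74 distinct intervals there and 128 in the rest. In replicate 2 no entries had the same start and end, but some overlapped. The entry at 9329421 to 9329768, for example, lay inside that at 9329322 to 9329830. The broad interval at 20611618 to 20612651 in replicate 1 held 3 summits, spaced by 273 and 286 bp, which were the closest neighbours of the stretch. Its partners in replicate 2 were 3 entries whose intervals differed but overlapped each other, with summits 242 and 121 bp apart. The third closest were the summits at 11198834 and 11199226 in replicate 1, 392 bp apart, and at 11198804 and 11199135 in replicate 2, 331 bp apart.

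Peak length differed little between stretch and rest against the spread of single peaks. In replicate 1 the median length was 329 bp in the stretch (quartiles 290 and 499, highest 1034) and 311 bp in the rest (quartiles 278 and 398, highest 782). In replicate 2 it was 378 bp in the stretch (quartiles 292 and 446) and 360 bp in the rest (quartiles 294 and 449). The difference of medians, stretch minus rest, was 17.8 ± 0.354 bp (SD, n = 2). It was small beside the quartile ranges, which overlapped widely in both lists. The distinct intervals of the stretch covered 28188 bp in the first list and 29825 bp in the second.

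Peaks of the stretch were taller than those of the rest in replicate 1 and not in replicate 2. In replicate 1 the pileup ran from 11.4 to 431 with a median of 37.7 in the stretch (quartiles 21.7 and 94.6), and from 9.63 to 152 with a median of 20.1 in the rest (quartiles 14.01 and 38.97). In replicate 2 it ran from 10 to 270 with a median of 28.5 in the stretch (quartiles 20 and 42), and from 11 to 229 with a median of 29 in the rest (quartiles 20 and 52.5). The ratio of medians, stretch to rest, was 1.87 in replicate 1 and 0.983 in replicate 2, which gives 1.43 ± 0.627 (SD, n = 2), so the excess over 1 was smaller than the spread between the lists. A pileup of at least 100 was reached by 18 of the 80 members of the stretch and 5 of the 135 of the rest in replicate 1. In replicate 2 it was reached by 7 of the 80 and 9 of the 135, a slightly larger share in the stretch.

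**Figure D2:**
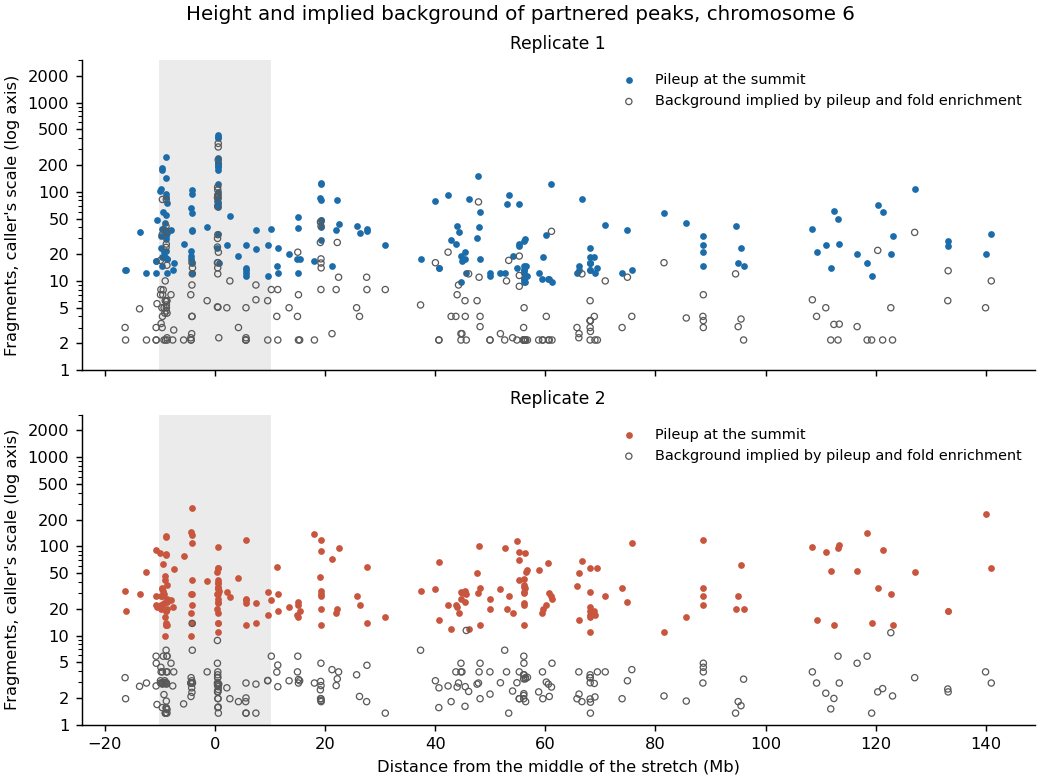
Pileup at the summit (filled points) and the background implied by pileup and fold enrichment (open points) of each partnered peak, on a log axis in fragments on the caller's scale, against distance in Mb from the middle of the stretch (grey band), with 1 panel per replicate. In replicate 1 both measures reach their highest values in the stretch, a pileup of 431 and a background of 349, while in replicate 2 no background exceeds 13.7.

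The difference in height in replicate 1 came with only a small one in fold enrichment. Its median in replicate 1 was 4.40 in the stretch (quartiles 3.29 and 5.81, range 1.23 to 13.7) and 4.18 in the rest (quartiles 3.35 and 5.01, range 1.96 to 19.1). In replicate 2 it was 7.78 in the stretch (quartiles 5.50 and 11.2, range 3.56 to 39.4) and 7.24 in the rest (quartiles 5.31 and 12.5, range 2.42 to 46.8). The difference, stretch minus rest, was 0.222 in replicate 1 and 0.540 in replicate 2, or 0.381 ± 0.225 (SD, n = 2). It was positive in both lists and larger than the SD between them, but small beside the quartile range of either side. Its sign changed in both under a stricter choice of members, given below. A fold enrichment of at least 10 was found in 1 of the 80 members of the stretch and 5 of the 135 of the rest in replicate 1. In replicate 2 it was found in 27 of the 80 and 47 of the 135, nearly equal shares. Under 2-fold lay 5 of the 80 members of the stretch and 2 of the 135 of the rest in replicate 1, and 0 of either in replicate 2.

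**Figure D3:**
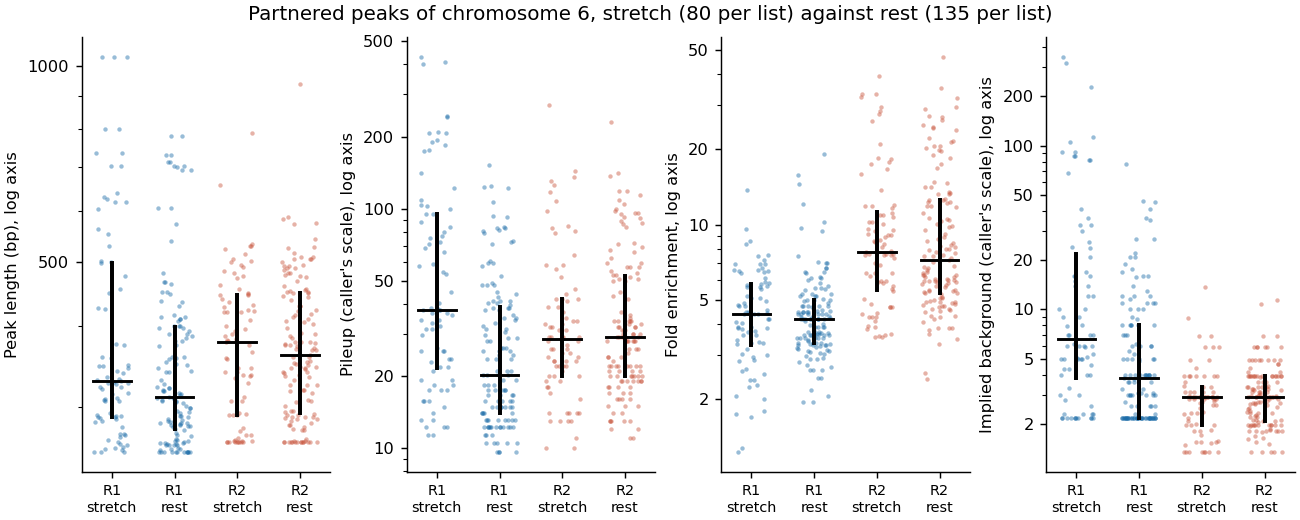
Length, pileup, fold enrichment and implied background of each partnered peak of chromosome 6 on log axes, for stretch and rest in replicate 1 (R1, blue) and replicate 2 (R2, red). Horizontal bars are medians and vertical bars the quartile range. Pileup and implied background of R1 are higher in the stretch (medians of 37.7 against 20.1 and 6.57 against 3.84), and the other measures overlap between stretch and rest.

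The local background that pileup and fold enrichment imply was also higher in the stretch in replicate 1. It was computed as the pileup plus 1, divided by the fold enrichment, minus 1, and it is on the same scale as the pileup. Its median was 6.57 in the stretch (quartiles 3.83 and 21.7) and 3.84 in the rest (quartiles 2.17 and 8.0005) in replicate 1. In replicate 2 the median was 2.94 in both (quartiles 1.97 and 3.37 in the stretch, 2.09 and 3.91 in the rest). The ratio of medians was 1.71 in replicate 1, and the mean of the lists was 1.36 ± 0.503 (SD, n = 2), again with an excess smaller than the spread between lists. A background of at least 20 occurred in 21 of the 80 members of the stretch and 11 of the 135 of the rest in replicate 1, and in 0 of replicate 2. The lowest value that any partnered peak of the list took, 2.17 in replicate 1 and 1.35 in replicate 2, was met within 0.01 by 13.75% of the stretch and 31.1% of the rest in replicate 1. In replicate 2 these shares were 10% and 3.70%. Over the partnered peaks of all chromosomes the share was 29.7% in replicate 1 and 7.16% in replicate 2. Pileup and implied background share the pileup by construction, and over the members of the stretch their Spearman's rho was 0.923 in replicate 1 and 0.283 in replicate 2 (n = 80 each). In the rest it was 0.827 and 0.376 (n = 135 each). In replicate 1 the implied background was within 0.01 of a whole number in 51 members of the stretch and 64 of the rest. In replicate 2 it was so in 1 and 1. The lists may thus not share a scale, and a fixed pileup or background need not mean the same in each. The cause was not tested. Whether the control or the immunoprecipitated library set the height of these peaks was not tested either, since no IgG values were analysed here.

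The 21-member group stood at the top of both measures in replicate 1. Its 21 members had pileups from 15.8 to 431 with a median of 122, fold enrichments from 1.23 to 6.72 with a median of 2.88, and implied backgrounds from 2.30 to 349 with a median of 33.0. A pileup of at least 100 was reached by 11 of them, out of 18 in the whole stretch, and a background of at least 20 by 14 of them, out of 21 in the stretch. Their partners in replicate 2 had pileups from 11 to 98 with a median of 32, fold enrichments from 3.56 to 28.4 with a median of 8.12, and backgrounds from 1.35 to 8.81 with a median of 2.78. In that list the group was thus close to the median of the stretch in height (32 against 28.5). This group was singled out after its values were seen. Without it, the median pileup of the other 59 members of the stretch was 31.5 in replicate 1 and 27 in replicate 2, the median fold enrichment 4.54 and 7.73, and the median background 5.001 and 2.94.

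The tallest partnered peak of the chromosome in replicate 1 lay in this group, on the broad interval at 20611618 to 20612651. Its 3 summits had pileups of 401, 408 and 431, but fold enrichments of 1.76, 1.28 and 1.23, with implied backgrounds of 228, 318 and 349. The replicate 2 partners of these summits, matched in order of position, had pileups of 42, 98 and 39 and fold enrichments of 16.7, 28.4 and 10.9. Their backgrounds were 1.58, 2.49 and 2.67. The tallest of the summits thus had the lowest fold enrichment of all 215 members of its list, while the partners of all 3 summits exceeded 10-fold. By nearness the matching differs. The replicate 2 summit nearest to that of pileup 431 was 20 bp away, with a pileup of 98 and 28.4-fold enrichment. The one nearest to that of pileup 408 was 24 bp away, with 42 and 16.7-fold. The next pair along was less extreme. The replicate 1 peak at 20636422 to 20636694 had a pileup of 72.7 and 3.35-fold enrichment, and its partner a pileup of 14 and 6.39-fold.

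Other members of the 21-member group had a high pileup over a high background in replicate 1 only. The peak at 20538016 to 20538390 had a pileup of 242 and 2.61-fold enrichment over a background of 91.998, and its partner a pileup of 58 and 12.005-fold. The peak at 20509023 to 20509329 had 193 and 1.70-fold over 113, and its partner 34 and 7.56-fold. The peak at 20529474 to 20530026 had 189 and 1.79-fold over 105, and its partner 35 and 9.15-fold. Not every member did so. The peak at 20518076 to 20518551 had a pileup of 99.8 and 6.72-fold enrichment over 13.999, with a partner at 29 and 6.86-fold, and the last of the group, at 20711999 to 20712320, had 15.8 and 5.07-fold over 2.30, with a partner at 32 and 8.57-fold.

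The other groups varied in the same respects. The group of 13 at 10897028 had a median pileup of 37.7 and 3.85-fold enrichment in replicate 1, and of 19 and 7.82-fold in replicate 2. The group of 5 at 25602064 had a median pileup of 13.1 and a background of 2.17 in replicate 1, near the lowest of the list, and a median pileup of 25 and 10.2-fold enrichment in replicate 2. In the rest, the group of 8 at 39159182 was also high in background in replicate 1, with a median pileup of 64.8, 2.66-fold enrichment and a background of 22.3, of which 4 members had at least 20. Its replicate 2 medians were 30.5, 10.5-fold and 2.21. The other group of 8, at 76054419, had 12.7, 4.04-fold and 2.17 in replicate 1, and 30.5, 7.24-fold and 3.45 in replicate 2. A high background in replicate 1 was thus found in some groups and not in others.

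Replicate 2 had its tallest members elsewhere. In the stretch this was the peak at 15865112 to 15865769, with a pileup of 270, 18.4-fold enrichment and a background of 13.7, and its replicate 1 partner had a pileup of 15.8 and 3.35-fold. In the rest it was the peak at 159957182 to 159958119, with 229 and 46.8-fold, and its partner had 20.1 and 3.52-fold. The tallest of the rest in replicate 1 was at 67872236 to 67872565, with 152 and 1.96-fold over a background of 77.0, and its partner had 30 and 7.88-fold. Of the 10 tallest of the 80 members of the stretch in each list, 2 pairs were in both. Of the 10 tallest of the 135 members of the rest, 0 were. Over all 215 members of the chromosome it was 1 pair. The overlap that unrelated ranks would give was not computed. These small counts, from sides of unlike size, therefore do not compare the agreement of the lists in stretch and rest.

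Pairs enriched in both lists were sought by the smaller of the fold enrichments, which fixes high values in both. In the stretch the first was at 15836438 to 15836778, with values of 9.56 in replicate 1 and 9.07 in replicate 2. Next came 14325525 to 14325882 (8.59 and 29.5), 10539917 to 10540479 (7.46 and 8.38) and 10128577 to 10128923 (13.7 and 7.37). The pairs at 15936379, 10757237, 15646325 and 20518076 had replicate 1 values between 6.72 and 6.96 and replicate 2 values between 6.86 and 10.9. Only the pair at 15646325 among these 8 had summits within 50 bp, 23 bp apart, and the summits of the pair at 14325525 were 275 bp apart.

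In the rest the first 2 of this ranking, at 141268977 and 133165170, stood above every pair of the stretch, with smaller values of 19.1 and 14.1. They were followed by 76401215 to 76401522 (9.70 and 8.01), 9494564 to 9494912 (7.500 and 8.19) and 108703974 to 108704673 (7.10 and 24.4). The pairs at 46268259, 86659241 and 133389255 had replicate 1 values between 6.38 and 7.03 and replicate 2 values between 7.48 and 26.9. The pair at 9494564 is the last before the stretch begins. Among these 8, the summits of the pairs at 9494564 and 133389255 lay within 50 bp, at 20 and 41 bp.

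**Figure D4:**
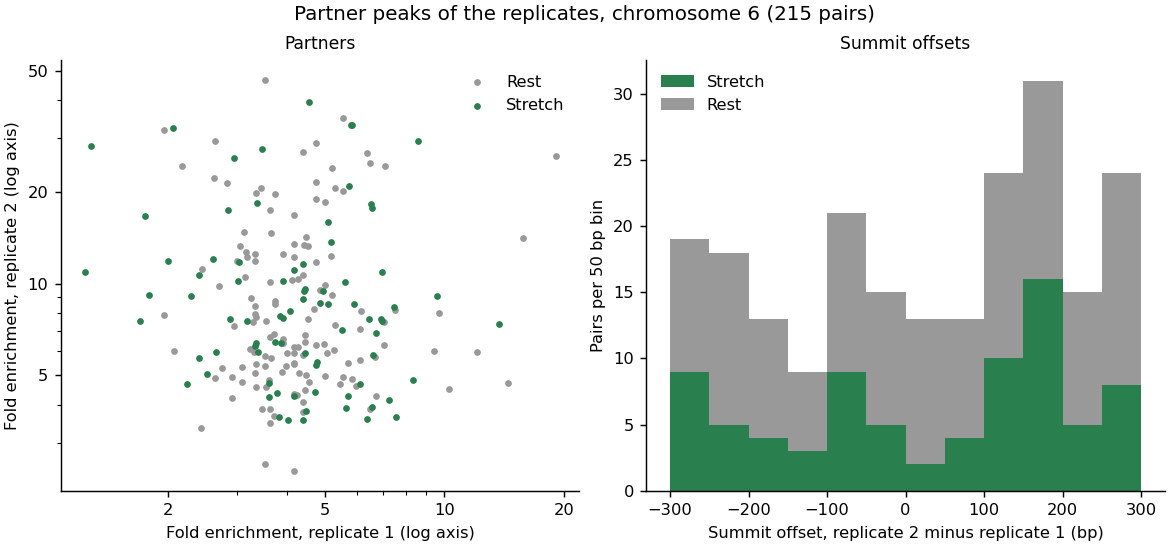
Left, fold enrichment of the replicate 2 peak against that of its replicate 1 partner on log axes, for 80 pairs of the stretch (green) and 135 of the rest (grey). Right, stacked counts of pairs per 50 bp of summit offset, replicate 2 minus replicate 1. The cloud is broad (rho of −0.145 in the stretch and −0.0107 in the rest), and no bin at the centre stands above the others, the bins holding between 9 and 31 pairs.

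Partners did not share their rank of enrichment. Over the 80 pairs of the stretch, Spearman's rho between the lists was −0.145 for fold enrichment, 0.209 for pileup, 0.0653 for implied background and 0.109 for length. Over the 135 pairs of the rest these were −0.0107, −0.0206, −0.0936 and −0.128. These coefficients describe pairs of the same 2 libraries and carry no test. The background of replicate 1, which was high at the 21-member group, was therefore not matched by its partners in replicate 2.

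Partner summits were seldom close. The median distance was 179.5 bp in the stretch (quartiles 99.5 and 227, highest 297) and 166 bp in the rest (quartiles 82 and 232, highest 298). Summits lay within 50 bp in 7 of the 80 pairs of the stretch (8.75%) and 21 of the 135 of the rest (15.6%). These counts are for partners matched in order of position. The replicate 1 summits at 20612156 and 20612442 lay 24 and 20 bp from a replicate 2 summit other than their matched partner. A count by nearest summit would thus be higher in the stretch. The widest pair had replicate 1 and replicate 2 peaks starting at 80731272 and 80731464. The intervals overlapped in 79 of the 80 pairs of the stretch and 131 of the 135 of the rest. In 12 bins of 50 bp from −300 to 300 bp, the number of pairs ran from 9 to 31, and the bins on either side of 0 held 15 and 13. Measured to the nearest summit of the other list, the median over all members of chromosome 6 was 166 bp in replicate 1 and 162 bp in replicate 2, or 164 ± 2.83 bp (SD, n = 2).

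Chromosomes 1 and 5 held stretches of 20 Mb with at least as many members, chosen here as the fullest of each by count. On chromosome 6 the fullest 20 Mb by the same search ran from 6 to 26 Mb, with 82 members. That of chromosome 1, from 90 to 110 Mb, held 118 of its 554 partnered peaks, and that of chromosome 5, from 197 to 217 Mb, 101 of 147. In replicate 1 the median pileup was 16.6 in the chromosome 1 stretch against 18.4 in its rest, and 20.1 against 21.5 on chromosome 5. The implied background was 2.17 against 3.0002 on chromosome 1 and 3.0006 against 3.9999 on chromosome 5. On chromosome 6 the same measures were 37.7 against 20.1 and 6.57 against 3.84, so the order of stretch and rest was the opposite one. In replicate 2 the pileups were 31 against 30 on chromosome 1, 31 against 29.5 on chromosome 5 and 28.5 against 29 on chromosome 6. Median fold enrichment and median length were higher in the stretch than in its rest on each of these chromosomes, in both lists. Fold enrichment in replicate 1 was 4.45 against 4.19, 4.45 against 4.09 and 4.40 against 4.18, in that order of chromosomes. In replicate 2 it was 7.92 against 7.84, 8.19 against 6.94 and 7.78 against 7.24. No test of these differences was made, since peaks of 1 library are not replicates.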

How the data were processed

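The submitters' processing notes name Bowtie2, with no version, and MACS2 2.0.10. The build, threshold, control and any later filter are not given there. One deposited peak table per anti-ZmbZIP22 library was used. The deposited pileup is a signal value scaled by the authors' caller, the deposited fold enrichment is a ratio to local background, and the deposited −log10 q was used for 1 stricter list. The deposited −log10 p was not used. Columns 7 and 9 have a spreadsheet error as heading and were read by the standard MACS2 column order. Whether positions count from 1 was not settled. Depth is unknown here. Scores of peaks have no error of their own, so values are given as quartiles over peaks and as mean ± SD of the 2 lists, with no test. Partners were matched in order of position. The gap of 100 kb between groups, the implied background (pseudocount 1, the caller's usual setting, assumed here) and the other chromosomes' stretches were chosen after the values were seen. Members and stretch were chosen with earlier results of these data known. Named pairs are the 8 with the highest smaller fold enrichment on each side, the tallest, those at the bounds and the closest. Further peaks of the 21-member group and the groups described were picked after their values were seen. Python 3.11.15, numpy 2.4.6, pandas 2.3.3 and matplotlib 3.10.9 were used, and the counting was tested on simulated lists.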

Additional observations from a re-analysis of the deposited data

How the results depend on the processing

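No comparison had a test, so a value counted as moved when it left the SD of the 2 lists, which was 0 for counts. For the counts and the spacing that SD is fixed by the choice of members, so there moved says only that the value was not identical. The share of members in the stretch and the density ratio were 39.4% and 4.85 with partners within 200 bp, 37.6% and 4.50 with an overlap of at least 1 bp, 42.3% and 3.41 with bounds of 5 and 35 Mb, 36.9% and 4.37 with each interval once, 46.8% and 6.64 among the 50% of members highest in −log10 q, and 30.4% and 3.26 without the 21-member group, an alternative added after seeing the data. In that order of alternatives the spacing ratio was 0.0333, 0.0450, 0.0583, 0.0523, 0.0289 and 0.0838, and the difference in median length 16.75, 13.5, 12.5, 17.0, −8.0 and 13.0 bp. Among the members highest in −log10 q the lists differed in all of these. The share in the stretch was 50.9% in replicate 1 and 42.6% in replicate 2. The density ratio was 7.75 and 5.54, and the spacing ratio 0.0178 and 0.0400. In these members the length difference was 8.0 bp in replicate 1 and −24.0 bp in replicate 2, so its sign changed in 1 list only. The difference in fold enrichment changed sign in both, to −0.245 and −2.46, with a mean of −1.35. The cause was not tested. With partners within 200 bp the difference in fold enrichment was 0.997, and the distance between summits 109 bp by construction. In the upper 50% that distance was 178.5 bp.

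Without a replicate, the pileup ratio was 0.983 or 1.87, the background ratio 0.999999 or 1.71 and the fold enrichment difference 0.222 or 0.540. The other results ran from 17.5 to 18.0 bp in length, 162 to 166 bp in summit distance and 0.0519 to 0.0521 in spacing. In replicate 1 the pileup ratio stayed between 1.57 and 1.98 under the alternatives run, and the background ratio between 1.29 and 1.81. The replicate 1 background ratio was 1.30 without the 21-member group. In replicate 2 the pileup ratio ran from 0.734, among the members highest in −log10 q, to 1.04, with partners within 200 bp. The direction in height was thus not shared by the lists. Placing peaks by summit changed no value. No paired analysis was possible because the libraries that share replicate numbers are those of anti-ZmbZIP22 and IgG, and no IgG values were analysed here. Stretch and rest were compared within each list throughout. The unknown depth limits every peak value.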
